A study of Mus musculus with 13 samples.

Results

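The vacuolar proton pump and lysosome genes of C2C12 myotubes were examined as a group of 42 genes, of the 16382 genes in the deposited tables. The group was listed by gene symbol because Atp6v0d2, a subunit of the pump, had the largest decrease of its members that passed the filter on low counts, so the contrast of treatment itself took part in the choice. The values of Atp6v0d2 are therefore given as a description, without a test, and the results of the other members describe a group that was picked with the data known. All 42 symbols were found in the tables. They comprise 18 genes of the pump (8 of the membrane sector V0, 8 of the catalytic sector V1 and 2 accessory proteins), 13 hydrolases, 2 carriers or activators of lipid breakdown, 6 membrane proteins and the 3 MiT transcription factors Tfeb, Tfe3 and Mitf.

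C2C12 is a mouse myoblast line, here differentiated into multinucleated myotubes in low-serum medium. According to the paper, some myoblasts stay unfused in this model, so the libraries come from mixed cultures. From day 8 of differentiation the cells received either 10 μM palmitoylethanolamide (PEA), a fatty acid amide, or its vehicle DMSO (CON) for 24 h, and poly-A RNA was sequenced from 6 libraries per group. Duplicate wells and 3 repeats of the experiment make up each group, and the labels do not tell which wells belong to the same repeat, so the spread between libraries, and every p-value built on it, may be partly technical. The line stands for muscle cells in culture, without nerve, vessels or immune cells. Bulk RNA cannot tell fewer cells of a type from less RNA per cell.

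The vacuolar ATPase is a rotary pump that acidifies lysosomes and endosomes. Its V1 sector hydrolyses ATP in the cytosol, its V0 sector carries protons through the membrane, and several subunits come in paralogs that are used in different tissues. The d subunit sits at the base of the rotor, where d1 is the widely expressed form and d2 is best known from osteoclasts, kidney and macrophages. Acid activates the hydrolases of the lysosome, and TFEB, TFE3 and MITF are helix-loop-helix factors that bind E-boxes such as CACGTG at many lysosomal genes.

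The promoters of both d subunit genes are shown because d2 had the largest decrease of the tested members. Each sequence is the 250 bases before the start of the canonical transcript, read from GRCm39 on the minus strand of the gene, at chr4:19922615-19922864 for Atp6v0d2 and at chr8:106292748-106292997 for Atp6v0d1. Capitals mark TGACTCA, the core motif of AP-1 factors, which was added to the search after the sequence had been seen.
Atp6v0d2: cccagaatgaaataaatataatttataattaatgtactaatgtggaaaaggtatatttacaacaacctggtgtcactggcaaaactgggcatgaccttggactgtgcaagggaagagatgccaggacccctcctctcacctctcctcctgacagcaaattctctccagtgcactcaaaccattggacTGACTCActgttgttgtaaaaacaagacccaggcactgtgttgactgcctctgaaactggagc
Atp6v0d1: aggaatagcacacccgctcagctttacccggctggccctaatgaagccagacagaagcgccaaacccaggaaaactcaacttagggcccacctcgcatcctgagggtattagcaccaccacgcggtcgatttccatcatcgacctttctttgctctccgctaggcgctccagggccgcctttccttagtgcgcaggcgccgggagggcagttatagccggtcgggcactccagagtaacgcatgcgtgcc
The Atp6v0d2 promoter had 44.4% G and C, and 20.5% of the promoters of 21757 protein-coding genes were lower. The Atp6v0d1 promoter had 59.6%, and 71.3% of promoters were lower. Neither held the E-box CACGTG or the MITF motif TCATGTG on either strand. The TGACTCA of Atp6v0d2 began 63 bases before the start, and this motif occurred in 4.03% of all promoters of that length and in 4 of the 42 members, the others being Glb1, Neu1 and Psap.

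CACGTG lay in the 250 bases before the start of 5 of the 42 members (11.9%), against 6.26% of all promoters. These were Atp6v1a among the pump genes and Ctsd, Gla, Glb1 and Lamp1 among the other members. The stretches around the sites of the latter 4 genes are shown because lysosomal E-boxes are the sequence that MiT factors are known to bind, with the E-box in capitals.
Ctsd, 34 bases before the start, chr7:141941792-141941821: tcttccttccccCACGTGacctgtatccag
Gla, 77 bases before the start, chrX:133501964-133501993: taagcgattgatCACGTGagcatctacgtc
Gla, 44 bases before the start, chrX:133501931-133501960: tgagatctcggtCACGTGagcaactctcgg
Glb1, 46 bases before the start, chr9:114230086-114230115: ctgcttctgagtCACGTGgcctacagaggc
Lamp1, 21 bases before the start, chr8:13209088-13209117: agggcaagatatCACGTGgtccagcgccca
With the first 50 bases of the transcript added, the motif was present in 10 members (23.8%), against 7.82% of all promoters, and the pump genes among them were Atp6v0b, Atp6v0e, Atp6v1a and Atp6v1h. None of those 4 pump genes was called changed by the test described below. A match is a run of letters, and no binding was measured.

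Libraries held between 12354845 and 50397444 estimated counts, and CON replicate 1 was the deepest. Values are given as normalized counts, the estimated counts divided by 1 factor per library. The test was the quasi-likelihood test of edgeR fitted to 13142 genes, a gene being called at a Benjamini-Hochberg adjusted p below 0.05, and 39 of the 42 members passed its filter on low counts. Of the genes tested, 11.0% were called in either direction, 4.74% were lower in PEA, 6.31% were higher in PEA, and 4.34% had normalized counts that did not overlap between the groups. CON replicate 2 stood apart by the highest summed level of myoblast and cycling markers among the CON libraries.

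Atp6v0d2 (chromosome 4, 19876838 to 19922614 on GRCm39, minus strand) had 115, 63.3, 202, 137, 86.5 and 159.6 normalized counts in the 6 CON libraries. In the PEA libraries it had 36.8, 34.7, 51.7, 41.4, 23.4 and 33.7 normalized counts. Every CON library lay above every PEA library. The mean was 127 ± 50.1 (SD, n = 6) in CON and 37.0 ± 9.34 in PEA, a log2 fold change of -1.79 (SE 0.26), so that it fell by 71.0%. With any single library left out, the log2 fold change stayed between -1.92 and -1.61, and without CON replicate 2, the lowest CON library, it was -1.92. These values rest on raw counts of 23 to 48 in PEA, so Atp6v0d2 was a low-abundance transcript whose spread in CON (coefficient of variation 39.4%) was wider than that of any other tested member, of which the largest was 14.5%.

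**Figure D1:**
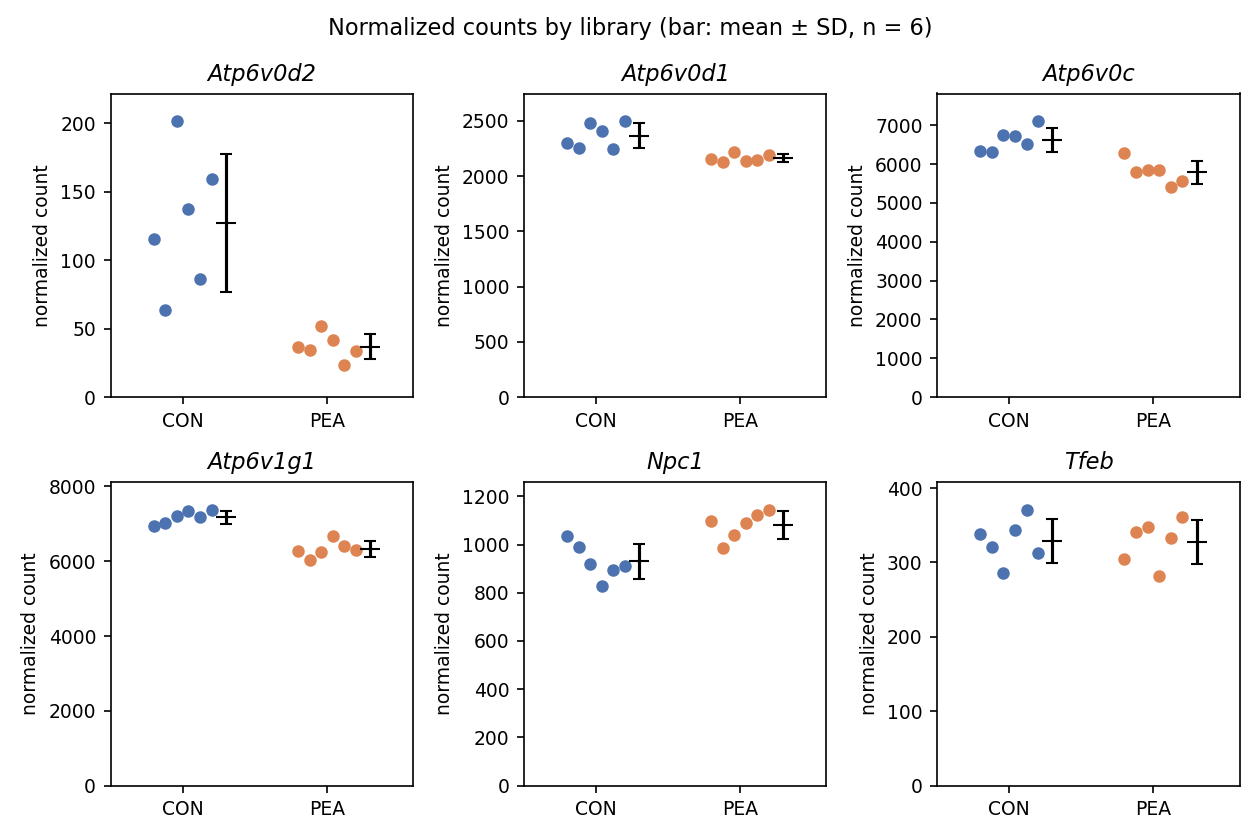
Normalized counts of 6 genes in each library, CON in blue and PEA in orange, with the mean ± SD of each group (n = 6) as a black bar and every axis starting at 0. The Atp6v0d2 points fall from 63.3 to 202 in CON to 23.4 to 51.7 in PEA, whereas its paralog Atp6v0d1 moves from a mean of 2364 to 2161 and Tfeb from 329 to 328.

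Atp6v0d1, the ubiquitous d subunit, ranged from 2242 to 2498 normalized counts in CON (median 2354) and from 2125 to 2218 in PEA (median 2149.7). The groups did not overlap, but the log2 fold change of -0.13 (SE 0.04) did not pass the test (adjusted p = 0.0534). Divided by annotated exon length, Atp6v0d2 made up 7.72%, 4.47%, 11.95%, 8.68%, 6.05% and 9.63% of the d subunit transcripts in the 6 CON libraries. Its share in the PEA libraries was 2.77%, 2.65%, 3.75%, 3.13%, 1.79% and 2.51%. The mean share thus went from 8.08% ± 2.65 to 2.77% ± 0.651 (SD, n = 6), and d1 supplied most of the d subunit RNA in every library. The size of the share depended on the length used, since it was 3.43% in CON and 1.13% in PEA per length of the canonical transcript.

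The a subunit, which lines the proton path of V0, is encoded by several paralogs. Atp6v0a1 ranged from 1587 to 1940.0 normalized counts in CON (median 1784) and from 1408 to 1773 in PEA (median 1517), with a log2 fold change of -0.19 (SE 0.06) and an adjusted p of 0.0521, just outside the threshold. Atp6v0a2 averaged 1983 ± 101 normalized counts in CON against 1876 ± 69.2 in PEA, and Tcirg1, the a3 form of osteoclast lysosomes and not one of the 42 genes, had 1658 ± 201 and 1805 ± 130.0. Neither difference passed the test (adjusted p = 0.276 and 0.268). Per kb of exon, Atp6v0a1 made up 28.9% ± 1.40 of these a transcripts in CON and 26.0% ± 2.05 in PEA. Tcirg1 made up 31.9% ± 3.11 in CON and 35.8% ± 2.28 in PEA, with overlapping libraries for both genes. Atp6v0a2 had the largest mean share, 39.2% in CON and 38.2% in PEA. The order depended on the length used. Per length of the canonical transcript Tcirg1 had the largest mean share, 43.5% in CON and 48.1% in PEA.

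The proteolipid genes encode the ring that turns in the membrane. Atp6v0c, its c subunit, ranged from 6317 to 7107 normalized counts in CON (median 6617) and from 5401 to 6283 in PEA (median 5819). All PEA libraries lay below all CON libraries, and Atp6v0c fell by 0.19 on the log2 scale (SE 0.05, adjusted p = 0.0146). Atp6v0b, the c″ subunit of the same ring, averaged 2828 ± 180.3 normalized counts in CON against 2786 ± 148 in PEA (adjusted p = 0.842). The small e subunits had mean values of 2306 in CON and 2242 in PEA for Atp6v0e, and of 423 and 406 for Atp6v0e2. The share of Atp6v0e2 among e transcripts per kb of exon was 11.9% ± 1.11 in CON and 11.7% ± 0.996 in PEA, and 6.56% and 6.49% per length of the canonical transcript.

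**Figure D2:**
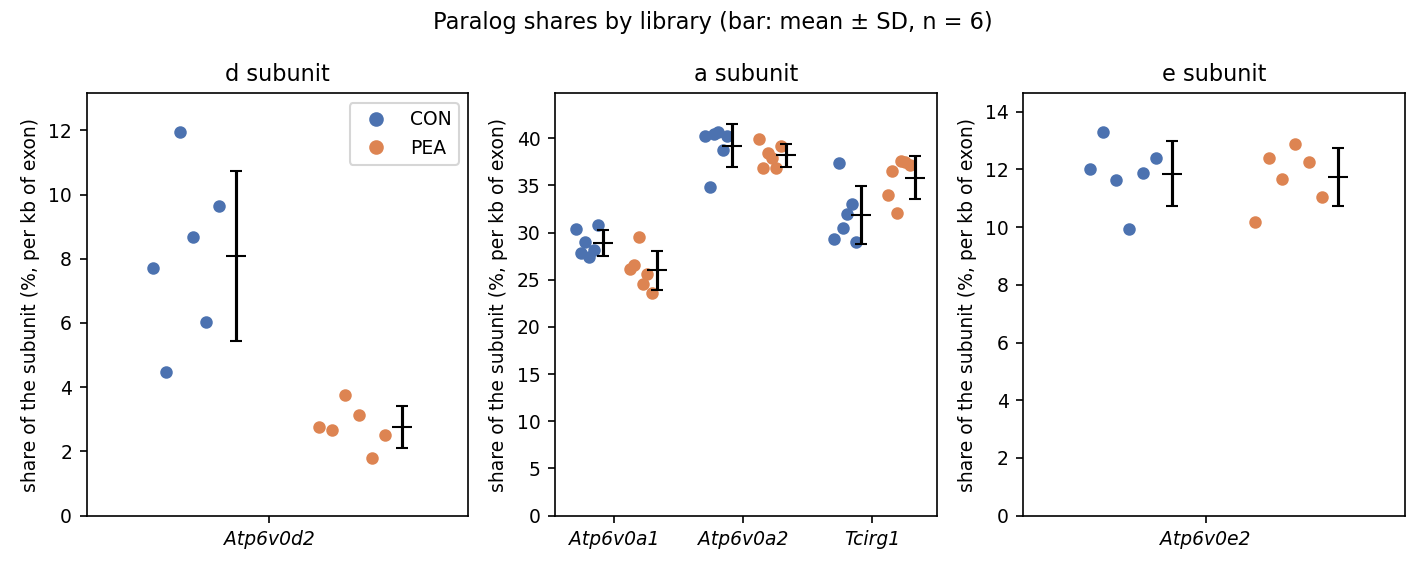
Share of each paralog in the transcripts of its subunit, in percent per kb of exon, for each CON (blue) and PEA (orange) library, with mean ± SD (n = 6) as a black bar. The Atp6v0d2 share goes from a mean of 8.08% to 2.77%, while that of Atp6v0e2 is 11.9% in CON and 11.7% in PEA.

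The V1 sector has a ring of A and B subunits, held by the stalk subunits C, D, E, F, G and H. Atp6v1g1, the widely expressed G subunit, ranged from 6937 to 7381 normalized counts in CON (median 7194) and from 6036 to 6672 in PEA (median 6286). The groups did not overlap, and it fell by 0.18 on the log2 scale (SE 0.04, adjusted p = 0.00793). Atp6v1c1, the C subunit that takes part in the reversible joining of V1 and V0, ranged from 2361 to 2819.9 in CON (median 2449.8) and from 2113 to 2391 in PEA (median 2149). It fell by 0.19 (SE 0.05, adjusted p = 0.0305), with the highest PEA library above the lowest CON library. Atp6v1e1, a stalk subunit, ranged from 3789 to 4383 in CON and from 3433 to 3959 in PEA, and its log2 fold change of -0.15 (SE 0.05) lay just outside the threshold (adjusted p = 0.0514).

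The remaining V1 genes did not pass the test. The catalytic A subunit Atp6v1a averaged 3571 ± 402 in CON and 3425 ± 101 in PEA, and the nucleotide-binding B subunit Atp6v1b2 had 2601 ± 89.6 and 2474 ± 96.5. The log2 fold changes of Atp6v1d and Atp6v1f, of the central shaft, and of Atp6v1h, a regulatory subunit, lay between -0.07 and -0.00, with adjusted p-values of 0.402, 0.984 and 0.682. Of the accessory proteins, Atp6ap2, the prorenin receptor, ranged from 2341 to 2794 in CON (median 2546) and from 2120.0 to 2429.6 in PEA (median 2229). It fell by 0.17 on the log2 scale (SE 0.05, adjusted p = 0.0471), near the threshold and with overlapping groups. Atp6ap1, a subunit needed for V0 assembly, had 5909 ± 344 and 5419.9 ± 248 (log2 fold change -0.12, SE 0.05, adjusted p = 0.102).

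**Figure D3:**
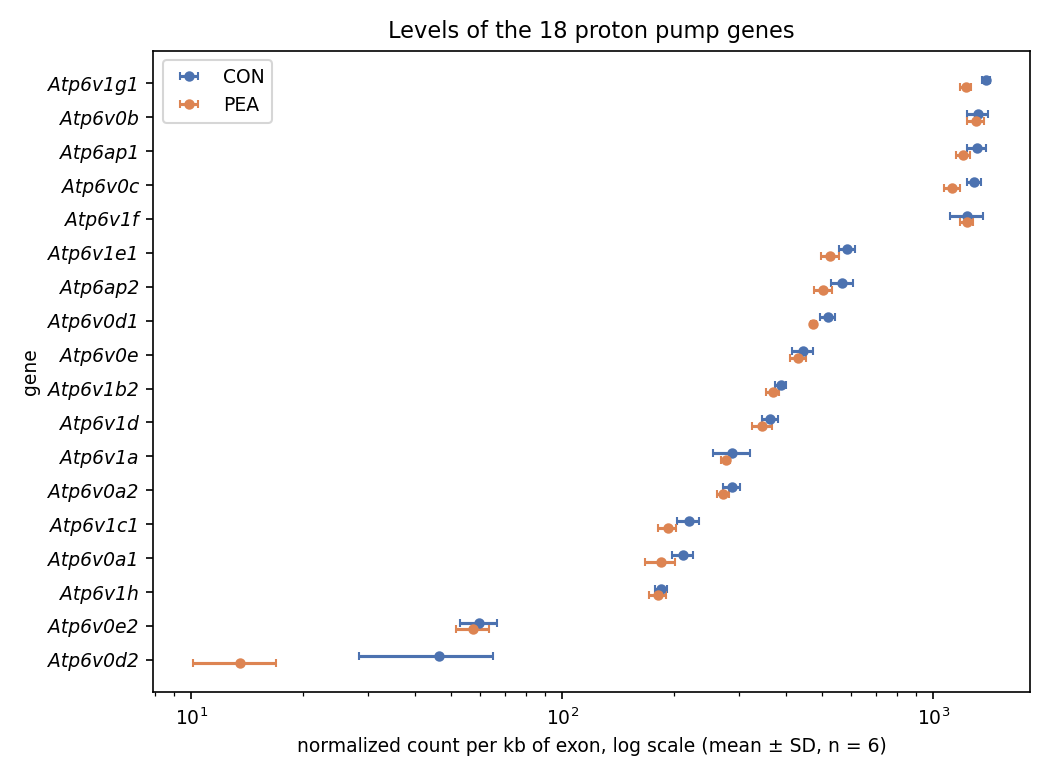
Level of the 18 proton pump genes, as the mean normalized count per kb of exon on a log axis, with SD over 6 libraries, for CON (blue) and PEA (orange). Atp6v1g1 is at the top with 1388 per kb in CON, and Atp6v0d2 at the bottom with 46.7 per kb in CON and 13.5 in PEA.

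Per kb of annotated exon, the pump genes in CON spanned from 1388 ± 33.0 normalized counts for Atp6v1g1 to 46.7 ± 18.4 for Atp6v0d2. The 4 genes after Atp6v1g1 were Atp6v0b (1320 ± 84.2), Atp6ap1 (1313 ± 76.4), Atp6v0c (1288 ± 58.5) and Atp6v1f (1235 ± 127), whose ranges of mean ± SD overlapped each other. Atp6v0e2, the next to last, was at 59.8 ± 6.88 in CON and 57.5 ± 5.88 in PEA, where Atp6v0d2 was at 13.5 ± 3.42. These levels depended on the length used. Per kb of the canonical transcript, a setting added after the data had been seen, Atp6v1g1 was again first in CON (6324 ± 150.3) and Atp6v0d2 last (49.9 ± 19.7), but Atp6v0c (4597 ± 208.9) and Atp6v0e (3458 ± 223) came next, and Atp6v0e2 was at 243 ± 27.9, above the spread of Atp6v0d2. Exon overlap bears on some of these levels, since the library kit named in the methods does not mark strand. Of the annotated exon bases of Atp6v0b, 55.1% are shared with an antisense long non-coding RNA, and of those of Atp6v1e1, 40.5% are shared with the opposite gene Slc25a18, so reads from the 2 strands cannot be told apart there.

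Apart from Atp6v0d2, whose decrease led to the choice of the group, 4 of 17 pump genes were called lower in PEA (Atp6v0c, Atp6v1c1, Atp6v1g1 and Atp6ap2) and none higher. At an unadjusted p below 0.05 there were 8, all lower, and the share of all genes at that threshold was not computed here. DESeq2 called 7 lower and none higher, beside 928 lower and 987 higher of all 16382 genes. With 1 library left out edgeR called between 2 (without CON replicate 3 or 6 or PEA replicate 2, 5 or 6) and 7 (without CON replicate 2). Without CON replicate 2 it called 971 of 13219 genes lower. It also called 7 with median-of-ratios size factors, where 672 of 13142 genes were lower. Besides Atp6v0d2, all 17 log2 fold changes were negative, where 48.7% of all genes tested were. With Atp6v0d2 all 18 were negative, and at least 16 of the 18 under the alternatives run. The median of the 17 was -0.08, and -0.10 with Atp6v0d2, beside a median of 0.01 over all genes. Besides Atp6v0d2, the counts of Atp6v0c, Atp6v0d1 and Atp6v1g1, 3 of 17, did not overlap between the groups. As the group was chosen on this contrast, nothing is read from the distance of these values to those of all genes. This holds for the 4.74% that were lower, the 4.34% that did not overlap, the 48.7% that were negative and the median. Apart from Atp6v0d2 the changes were small, between -0.19 and -0.00 on the log2 scale, and those of Atp6v1f, Atp6v0b and Atp6v0e2 took a positive value in 1 or more of the alternatives.

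Cathepsins are the proteases of the lysosome. None of the 5 that were tested was called by edgeR, and none had an unadjusted p below 0.05 or was called by DESeq2. Cathepsin D (Ctsd), an aspartic protease and the member with the highest level per kb of annotated exon, averaged 26039.5 ± 1478 normalized counts in CON against 26298 ± 1259.6 in PEA (adjusted p = 0.861). Per kb of the canonical transcript, Cd63 was above it in CON (14192 against 12242). Of the exon bases of Ctsd, 29.2% are shared with Gm49369, a gene on the same strand. The cysteine proteases Ctsb and Ctsl had 29687 ± 1369.8 and 27514 ± 3049 in CON, and 28302 ± 1263 and 28649 ± 584 in PEA (adjusted p = 0.367 and 0.569). Ctsz, a carboxypeptidase, had 4779 ± 334 in CON and 5101 ± 232 in PEA, a difference of 0.10 on the log2 scale (SE 0.05) that was not called (adjusted p = 0.227). Ctsa, a carboxypeptidase that protects β-galactosidase and neuraminidase, had 4105 ± 100.0 and 3994 ± 79.5.

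The proteases and phosphatase that mark osteoclasts and antigen-presenting cells were close to 0. Cathepsin K (Ctsk) had a median of 5.62 normalized counts in CON and 1.12 in PEA, and cathepsin S (Ctss) 3.74 and 8.09. Tartrate-resistant acid phosphatase (Acp5) had a median of 3.07 in CON, with a range from 1.07 to 11.0, and of 1.03 in PEA, with a range from 0.00 to 2.02. These 3 genes did not pass the filter on low counts. With edgeR run without that filter none of them was called, with an adjusted p of 0.0940 for Acp5, 0.315 for Ctsk and 0.279 for Ctss.

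The glycosidases and lipase did not pass the test either. Lipa, the acid lipase that splits cholesteryl esters, ranged from 1471 to 1754 normalized counts in CON and from 1321 to 1591 in PEA, with a log2 fold change of -0.12 (SE 0.05, adjusted p = 0.133). Glb1, the acid β-galactosidase, ranged from 921 to 1002 in CON and from 993 to 1042 in PEA (adjusted p = 0.31). Neu1, a sialidase, had 1068 ± 69.8 and 1010.3 ± 49.6, Hexa, a hexosaminidase subunit, 4356 ± 373 and 4589.8 ± 419.5, and Gla, the α-galactosidase, 969.6 ± 58.4 and 966 ± 59.5. The median log2 fold change of the 10 tested hydrolases was 0.01, with 5 positive and 5 negative, of which Ctsd and Gla changed sign under some alternatives. The activator precursor Psap had 27472 ± 1885 and 28152 ± 1043, and the cholesterol carrier Npc2 17852 ± 2129 and 19606 ± 1563, without a call (adjusted p = 0.67 and 0.235).

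**Figure D4:**
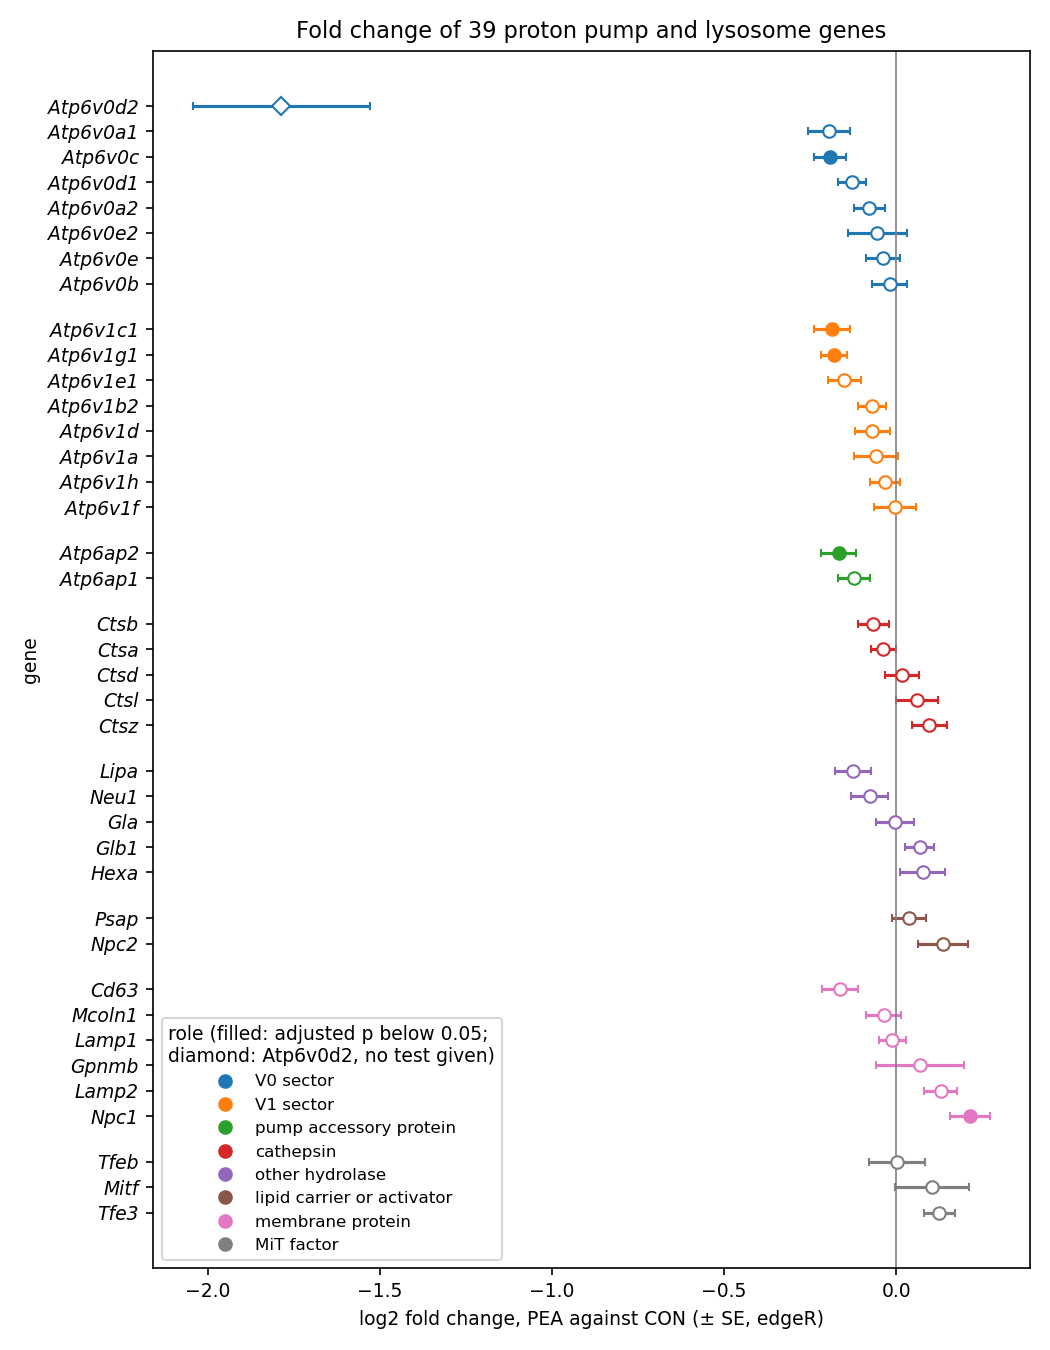
Log2 fold change of PEA against CON, with its SE, for the 39 tested genes grouped by role, where filled circles passed an adjusted p below 0.05 and the diamond, Atp6v0d2, is given without a test. The pump genes lie at or left of 0, with Atp6v0d2 at -1.79 and with Atp6v1f, Atp6v0b and Atp6v0e2 changing sign under some alternatives, the hydrolases lie on both sides, and Npc1 is the filled point on the right at 0.21.

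Of the 6 membrane proteins, 1 was called, or 16.7% beside the 11.0% of all genes, from which nothing is read. Npc1, which exports cholesterol from the lysosome, ranged from 827 to 1036 normalized counts in CON (median 916) and from 986 to 1145 in PEA (median 1093). Npc1 rose by 0.21 on the log2 scale (SE 0.06, adjusted p = 0.0269), with overlapping groups, and it was the only tested member that was called higher. Cd63, a tetraspanin of late endosomes, ranged from 18309 to 21988 in CON and from 16218 to 18331 in PEA, a log2 fold change of -0.16 (SE 0.05) just outside the threshold (adjusted p = 0.0514). Lamp2, which serves in chaperone-mediated autophagy, had 6304 ± 384 and 6886 ± 286 (log2 fold change 0.13, SE 0.05, adjusted p = 0.0848), and the structural protein Lamp1 had 24972 ± 577 and 24738 ± 787 (adjusted p = 0.884). The calcium channel Mcoln1 and the glycoprotein Gpnmb, a known MITF target, had 1204 ± 51.0 and 232 ± 33.8 in CON, and 1171 ± 67.5 and 243 ± 47.8 in PEA, with adjusted p-values of 0.681 and 0.768. Of the exon bases of Lamp1, 49.2% are shared with the opposite gene Grtp1.

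None of the 3 MiT factors was called by edgeR or by DESeq2, and Tfe3 alone had an unadjusted p below 0.05. Tfeb ranged from 286 to 371 normalized counts in CON (median 329) and from 282 to 361 in PEA (median 337), a log2 fold change of 0.00 (SE 0.08, adjusted p = 0.991). Tfe3, the most abundant of them per kb, ranged from 1312 to 1486 in CON and from 1411 to 1589.7 in PEA, with a log2 fold change of 0.13 (SE 0.05, adjusted p = 0.0844). Mitf ranged from 159.6 to 229 in CON and from 169 to 234 in PEA, a log2 fold change of 0.10 (SE 0.11) that was not called (adjusted p = 0.575). These factors are mainly controlled by phosphorylation and entry into the nucleus, which RNA counts do not measure.

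In all, with Atp6v0d2 left aside, 5 of 38 tested members were called, 4 lower and 1 higher, or 13.2% beside the 11.0% of all genes, from which nothing is read. The count moved with single libraries: it was 11 without CON replicate 2, 3 without CON replicate 3 or 5 or PEA replicate 2, and 2 without CON replicate 6 or PEA replicate 5 or 6. Atp6v0c and Atp6v1g1 were called with any 1 library left out. Atp6v1c1 was no longer called without CON replicate 3 or 6 or without PEA replicate 1, 2, 5 or 6, where its adjusted p reached 0.0767. Npc1 was no longer called without CON replicate 5 or 6 or without PEA replicate 4, 5 or 6, where its adjusted p reached 0.0693. Atp6ap2 was no longer called without CON replicate 3, 4, 5 or 6 or without PEA replicate 2, 4, 5 or 6, where its adjusted p reached 0.103.

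As a summary by library, the log2 CPM of each tested member was centred on its mean over the 12 libraries and averaged over a class. The 18 pump genes ranged from 0.03 to 0.17 in CON and from -0.15 to -0.05 in PEA. Without Atp6v0d2 they ranged from 0.01 to 0.08 in CON and from -0.08 to -0.03 in PEA. The groups did not overlap in either case, which is a description of genes chosen on this contrast. The hydrolases ranged from -0.05 to 0.05 in CON and from -0.05 to 0.05 in PEA, and the membrane proteins and MiT factors overlapped likewise.

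**Figure D5:**
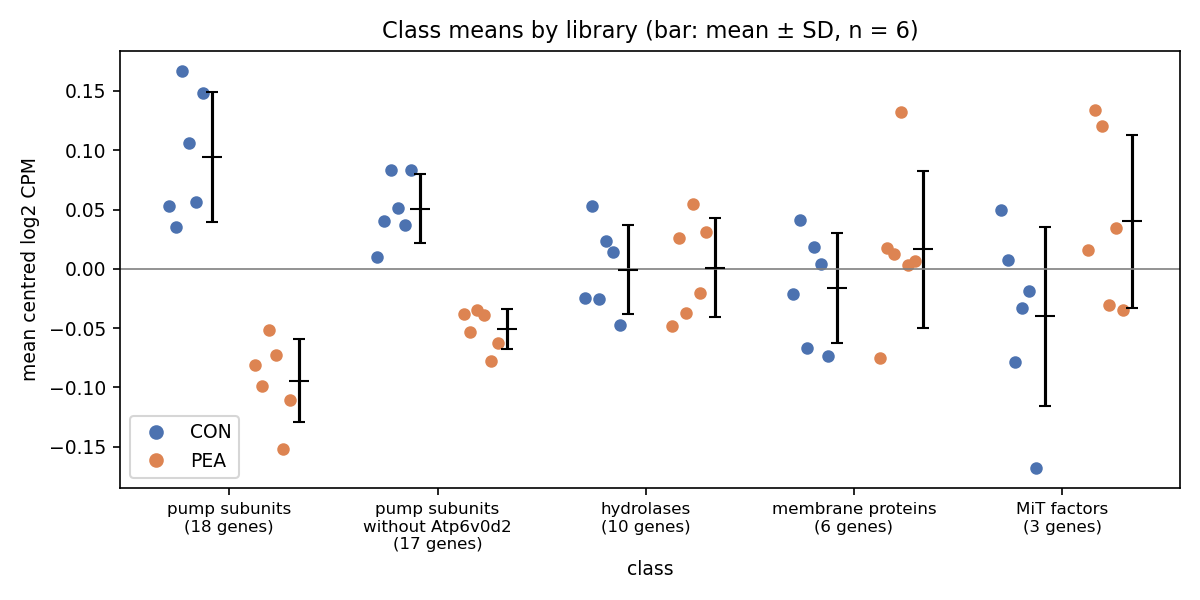
Mean centred log2 CPM of each class of genes in each CON (blue) and PEA (orange) library, with mean ± SD (n = 6) as a black bar. The pump genes lie above 0 in every CON library and below 0 in every PEA library, also without Atp6v0d2, while hydrolases, membrane proteins and MiT factors overlap.

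Other genes of the pathway were examined by lists of known function. Of 15 tested paralogs, assembly factors and regulators of the pump, 1 was called. Oxr1, a TLDc protein of a family that acts on V1, rose by 0.24 on the log2 scale (SE 0.05, adjusted p = 0.0067), from 2943 ± 200.1 to 3468 ± 116 normalized counts, without overlap. The related Ncoa7 had a log2 fold change of 0.28 (SE 0.09, adjusted p = 0.0603), and the V0 assembly factor Vma21 one of -0.18 (SE 0.06, adjusted p = 0.0566). Atp6v1c2 and Atp6v1g2, paralogs of the called subunits C1 and G1, were low, with 88.5 ± 27.9 and 54.1 ± 9.81 normalized counts in CON, and were not called (adjusted p = 0.577 and 0.663). Called genes of this list were 6.67% beside 11.0% of all genes, and numbered 4 without CON replicate 2, 2 without CON replicate 3 and 3 with DESeq2.

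Of 45 other lysosomal genes tested, 4 were called higher and 2 lower, which is 13.3% beside 11.0% of all genes. The 4 were glycan-degrading enzymes or a sulfatase. Man2b1, an α-mannosidase, went from 623 ± 44.2 to 788 ± 91.0 normalized counts (log2 fold change 0.34, adjusted p = 0.00911), and Arsb, a sulfatase, from 757 ± 99.7 to 955 ± 82.5 (0.34, adjusted p = 0.0142). The β-mannosidase Manba rose by 0.32 on the log2 scale and the fucosidase Fuca1 by 0.31 (adjusted p = 0.0454 and 0.0378). Smpd1, the acid sphingomyelinase, fell by 0.17, from 1444 ± 85.6 to 1281 ± 29.6 without overlap (adjusted p = 0.0273), and the sorting receptor Sort1 fell by 0.43 (adjusted p = 0.045). Leaving out CON replicate 2 gave 11 called genes in this list, whereas leaving out CON replicate 1, 5 or 6 or PEA replicate 6 gave 2, and leaving out PEA replicate 2, 4 or 5 gave 3.

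Regulators of the MiT factors were tested for 17 genes, of which 3 were called lower and 1 higher, or 23.5% beside 11.0% of all genes. Rragc, a Rag GTPase that recruits TFEB and mTORC1 to the lysosome, fell by 0.17 on the log2 scale, from 2952 ± 197 to 2615 ± 87.8 without overlap (adjusted p = 0.0298). Lamtor1, the membrane anchor of the Ragulator complex that activates Rag proteins, fell by 0.20, from 1908 ± 132 to 1660.2 ± 80.0 (adjusted p = 0.0213). Ywhae, a 14-3-3 protein of the kind that holds phosphorylated TFEB in the cytosol, fell by 0.19 (adjusted p = 0.0185). Slc38a9, the arginine sensor of the lysosomal membrane, rose by 0.32, from 214 ± 21.8 to 267 ± 29.9 (adjusted p = 0.0456). The list had 2 called genes without CON replicate 5, without PEA replicate 1 or without PEA replicate 5, and 1 without CON replicate 6 or without PEA replicate 2.

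The cells carried myotube markers in every library, with summed levels from 115197 to 179972 normalized counts in CON and from 116847 to 138638 in PEA. Of these 16 genes 5 were called lower, among them Tnni2 and Actn2, beside 4.74% of all genes. Of 8 myoblast and cycling markers 6 were called higher, beside 6.31% of all genes. These were the cycling genes Mki67, Top2a, Ccnb1, Cdk1, Ccna2 and Bub1, while the myoblast markers Pax7 and Myf5 had log2 fold changes of -0.02 and 0.09 that were not called (adjusted p = 0.947 and 0.58). The sum of the 8 went from between 2976 and 6738.5 in CON to between 6858 and 8073 in PEA. CON replicate 2, with the lowest Atp6v0d2 of the CON libraries, had the highest sum of these markers among them, and CON replicate 3, with the highest Atp6v0d2, had the lowest such sum and the lowest myotube sum. The part of these shifts in the pump and lysosome results was not tested.

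Since Atp6v0d2, Ctsk and Acp5 are known from osteoclasts and macrophages, markers of both were examined. Of 8 osteoclast markers, 3 were in the tables, with summed levels from 486 to 624 in CON and from 576 to 649 in PEA. Nfatc1 and Itgb3, which muscle cells also express, made up nearly all of this sum, and Mmp9 was at most 10.4 normalized counts. Of 10 macrophage markers, 6 were in the tables, with sums from 604 to 822 in CON and from 693 to 892 in PEA, most of it from Cd14 (554 ± 63.7 in CON and 657 ± 80.0 in PEA) and Cd68 (100.0 ± 27.5 and 96.4 ± 17.7). The other markers in the tables were low, with medians of 0.00 for Ptprc, 7.28 in CON and 6.75 in PEA for Csf1r, 3.44 and 1.85 for Itgam, and 9.44 and 15.4 for Lyz2. None of the tested markers of either list was called by edgeR, and 1 in each list had an unadjusted p below 0.05. The 5 other osteoclast and 4 other macrophage markers were not analysed here.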

How the data were processed

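RNA-seq of C2C12 myotubes was analysed in 12 libraries, 6 CON and 6 PEA, grouped by their labels. PEA replicate 2 is listed with a top-up run that shares its values and counted as 1 library. The authors trimmed the reads, aligned them to mm39 with STAR 4.4.1d, assigned them to Ensembl genes with Partek Flow, and deposited an estimated count per gene and library, without normalization. They also deposited a signal, each library's counts scaled by a factor of its own, called normalized counts here. The deposited tables hold 16382 genes, each with at least 10 counts over all libraries, and end within the list of identifiers, so that genes beyond it were not analysed here.

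Estimated counts, of which 30.8% of those above 0 lay more than 0.01 from a whole number, were rounded and tested with edgeR 4.0.16 (TMM normalization, default filter, quasi-likelihood test, all 12 libraries) in R 4.3.3. SE is the log2 fold change divided by the square root of F. Alternatives used DESeq2 1.42.0, limma 3.58.1 with a pseudocount of 1, other filters and scalings, a replicate block, a threshold of 0.01 and each library left out. Shares and levels used exon lengths of GENCODE for GRCm39. Promoters were read from the GRCm39 genome at the canonical start of each gene. Figures were drawn with matplotlib 3.10.9 in Python 3.11.15. Totals per library ranged from 12354845 to 50397444, and errors cover counting and the spread between libraries.

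The 42 genes, the other gene lists and the tests were chosen with earlier results of these data known. Genes named are all 42 members, their paralogs, and called or lowest-p genes of the other lists, with markers by level.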

Additional observations from a re-analysis of the deposited data

Results flagged for a closer look

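In each group of 6 libraries the highest and the lowest value were compared with the others, over 86 groups, of which chance would flag about 1 in 20. The gap to the nearest library, relative to the whole range of the group, exceeded Dixon's 95% critical value in 4 groups. In CON replicate 2, Ctsz had 5405 normalized counts, with the other CON libraries between 4461 and 4800.0, and Hexa had 5074, with the others between 4003 and 4322. This is the CON library with the highest sum of myoblast and cycling markers, and without it Ctsz was called (log2 fold change 0.13, edgeR adjusted p = 0.0442) whereas Hexa was not (adjusted p = 0.152). In PEA replicate 6, Mitf had 169 normalized counts, with the other PEA libraries between 211 and 234, and without it Mitf remained uncalled (adjusted p = 0.346). In PEA replicate 1, Ctsk had 4.20 normalized counts, with the others between 0.843 and 2.02, all of them at the level of a few reads.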

How the results depend on the processing

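The decrease of Atp6v0d2 kept its direction under every alternative run, between -1.92 and -1.61 on the log2 scale. The median of the pump genes lay between -0.12 and -0.08, and at least 16 of the 18 were negative under each alternative. Members called besides Atp6v0d2 numbered 9 with DESeq2, with limma-voom and with median-of-ratios size factors, where Atp6v0a1, Atp6v0d1, Atp6v1e1 and Cd63 were the 4 added, 1 below 0.01, and 2 to 11 with 1 library left out. With Atp6v0d2, whose decrease chose the group and which supports nothing here, these counts were 10, 2, and 3 to 12. Over all genes 1452 were called, and the count also moved with the setting. It was 1915 with DESeq2, 1628 with limma-voom, 1470 with median-of-ratios size factors and 405 below 0.01. With 1 library left out it was 778 (without PEA replicate 6) to 2203 (without CON replicate 2). Other pump genes called numbered 3 with DESeq2, 2 with a replicate block and 1 to 4 with 1 library left out, of which CON replicate 3 gave 2. Other lysosome genes called numbered 1 below 0.01 and 2 to 11 with 1 library left out. MiT regulators called numbered 0 below 0.01 by edgeR (6 at an unadjusted p below 0.05) and 1 to 4 otherwise. The median of the membrane proteins lay between -0.029 and 0.064 with 1 library left out. The Atp6v0d2 share was 5.02% in CON and 1.68% in PEA without division by length, and 3.43% and 1.13% per canonical transcript length, a setting added after the data had been seen. The cause of these differences was not tested. Of the 39 tested members, 7 uncalled ones near 0 changed sign under some alternative and no called one did.

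With a replicate block, 7 members besides Atp6v0d2 (8 with it) and 1570 genes were called. Same-numbered CON and PEA libraries deviated with correlations between -0.083 and 0.065, and none correlated best with its own number, so the numbers were not taken as pairs. The 3 members below the filter had medians of at most 8.09 normalized counts.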
